A study of Homo sapiens with 6 samples.

Results

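The members described here are 512 long circular RNAs (circRNAs) of BEAS-2B, a virus-immortalised human cell line that derives from normal bronchial epithelium. A circRNA is a transcript without ends, closed where the splicing machinery links an exon back to an exon that precedes it, and reads over that back-splice junction are what is counted. Each circle has 1 junction whatever its length, so junction reads need no scaling by length. The rule that picks the 512 uses annotation alone and no measured value. Each is exonic and assigned to a single host gene, with a deposited spliced length over 1000 bases and shorter than its genomic span. They come from 386 host genes and are 512 of the 9857 circRNAs in the series. One of them, an ASXL1 circle, is listed under 2 annotation entries, so the rule met 513 table entries. The 3 control libraries are from cells kept at 0.0 µM cadmium for 20 weeks. The 3 cadmium libraries are from cells kept in 2.0 µM cadmium for the same time. All 6 libraries were made from RNA that was cleared of ribosomal RNA and digested with RNase R, an exonuclease that degrades linear RNA and spares circles. Nothing in the labels ties the 3 libraries of a group to separate cultures. The p-values therefore reflect the spread among these libraries alone, which may be technical. Values per library are always listed in the order of replicates 1, 2 and 3. In bulk RNA a smaller share of cells making a circle and less of it per cell cannot be told apart.

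Circles form when the spliceosome joins exon ends in reverse order, often across exons whose flanking introns can pair. Most abundant circles hold a few short exons, while long ones hold either many exons or one very large exon. Lacking free ends, circles resist exonucleases, yet a single break opens one and makes it a substrate for RNase R. Cadmium is a toxic metal that binds thiols and provokes oxidative stress, and long exposure transforms bronchial cells in culture.

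The junction is the only part of a circle that the reads identify, so 9 junctions are shown for members the results turn on: 4 of the nested TRIO circles, the most abundant BARD1 circle, and 4 circles with an exon over 1000 bases, from BACH1, MAP3K4, USP10 and RBM6. Each line gives the last 20 coding bases of the last exon in lower case and the first 20 of the first exon in capitals, 5′ to 3′ on the transcript, from GENCODE 29 transcripts. The capitals mark the start of the circle's first exon.
TRIO hsa_circ_0005683, exons 5 to 11: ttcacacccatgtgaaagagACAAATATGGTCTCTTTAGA
TRIO hsa_circ_0002621, exons 4 to 11: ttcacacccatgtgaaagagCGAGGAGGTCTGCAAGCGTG
TRIO hsa_circ_0006674, exons 2 to 11: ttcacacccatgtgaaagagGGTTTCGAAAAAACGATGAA
TRIO hsa_circ_0003989, exons 5 to 9: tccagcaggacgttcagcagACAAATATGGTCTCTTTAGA
BARD1 hsa_circ_0001098, exons 4 to 6: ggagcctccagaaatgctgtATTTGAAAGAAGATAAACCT
BACH1 hsa_circ_0061395, exons 3 to 4: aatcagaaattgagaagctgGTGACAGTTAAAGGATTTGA
MAP3K4 hsa_circ_0078617, exons 2 to 3: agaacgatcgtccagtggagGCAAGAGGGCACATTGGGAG
USP10 hsa_circ_0003026, exons 3 to 4: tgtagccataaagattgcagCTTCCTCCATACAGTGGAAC
RBM6 hsa_circ_0065769, exons 3 to 5: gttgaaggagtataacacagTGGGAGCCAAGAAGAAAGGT
The first 3 TRIO junctions share their lower-case bases, which is the end of exon 11, and differ in the first exon. The first and the fourth share the start of exon 5 and differ in the last exon.

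Junction reads per library ran from 133185 to 225769, of which 5462 to 10016 fell in the long circles. The median was 7 reads per long circle and library, so a single circle was counted with low precision, and reads that carry no molecular identifier may repeat a molecule. No circle is listed with exactly 1 read in any library, so a listed 0 may not mean that no read was found. Control replicates 1 and 3 stood apart from the other 4 libraries in the weighted junction share, the doubled junction reads as a share of those plus the other reads of the same loci. Over 326 long circles with a non-junction value in every library it was 48.1%, 26.2% and 46.9% in controls and 27.1%, 26.7% and 21.4% with cadmium (difference -15.3 points, two-sided exact permutation p = 0.3). The way non-junction reads were counted was not given in the sources used here. Of 12 bronchial epithelial markers, KRT5, KRT18, CDH1 and EPCAM among them, 0 host a listed circRNA, so the cell type cannot be checked in these circles. Of 11 fibroblast and mesenchymal markers BNC2, ZEB1 and ZEB2 host circles, which summed to 605 to 703 CPM (counts per 1e+06 reads of the TMM-scaled library) in controls and 377 to 482 CPM with cadmium. CCDC40 is the single host among 8 ciliated markers (73.0 to 131 CPM in controls, 96.4 to 197 CPM with cadmium), and the 7 secretory, 6 immune and 4 endothelial markers host 0. No marker hosts a long circle, and the part of these values in the results below was not tested.

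The deposited spliced length is not a measured length. Of the 512 long circles, 511 carry a catalogue name (an hsa_circ number), and the exon blocks that the same table lists for them sum to a median of 329.5 bases. The block sum equals the deposited length in 2 long circles. In contrast it equals it in all 2709 multi-exon circRNAs without a catalogue name, so an unnamed circle was given the length of its listed blocks only. Set against GENCODE 29, 474 of the 512 have both ends on exon bounds of 1 transcript of the host. For 434 of these a transcript between the same ends has exactly the deposited length. Another 40 have no model of that length, and 38 have no model. In 396 every model is over 1000 bases, and in 32 every model is 1000 bases or shorter. The same annotation holds 572 multi-exon circles with every model over 1000 bases, of which 176 are not among the 512 because their deposited length is shorter.

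None of the 5 longest entries has a model of its deposited length. hsa_circ_0077660 of REV3L, the catalytic subunit of the translesion DNA polymerase zeta, is deposited at 56094 bases, while models between its ends run from 554 to 661 bases (chr6:111405470-111472140, GRCh38, minus strand, exons 3 to 6 of 34). hsa_circ_0006263 of HERC4, a HECT ubiquitin ligase, is deposited at 22891 bases, hsa_circ_0007972 of CRIM1 at 18795, hsa_circ_0002802 of ZNF124 at 18690 and hsa_circ_0005715 of ANKRD12 at 18196, and these 4 have no model. hsa_circ_0005147 of UBE3A, the ubiquitin ligase lost in Angelman syndrome, is deposited at 4162 bases against 570 in GENCODE, and hsa_circ_0005934 of STK3, a Hippo pathway kinase, at 15991 against 647. At the other end of the range, the 2 circles just above the bound are from AKAP10 (1003 bases) and KIAA1468 (1004 bases), with 0 to 11 and 0 to 5 reads per library. The 2 just below are both 999 bases long, from SS18 (0 to 8 reads) and XPO1 (6 to 16 reads).

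**Figure D1:**
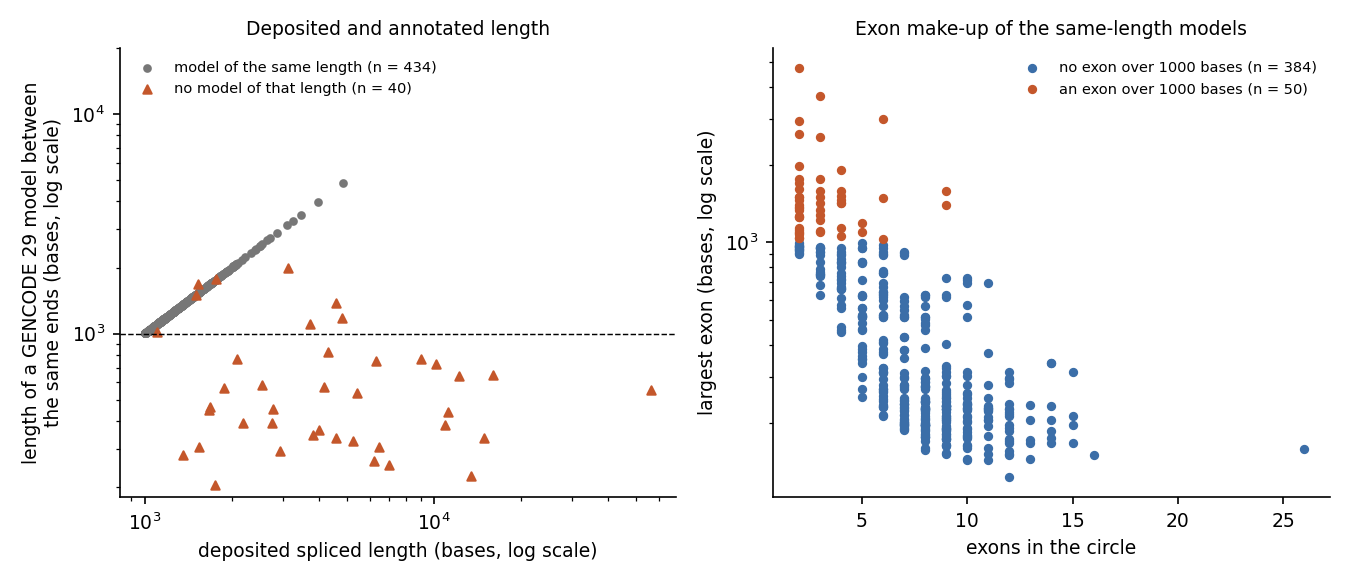
Left, deposited spliced length against the length of a GENCODE 29 model between the same ends, both in bases on log scales, for the 474 long circles with a model; the dashed line is 1000 bases. Grey points (434) have a model of the deposited length and orange triangles (40) do not, and most triangles lie below the line. Right, number of exons against the largest exon (log scale) for the 434, where the 50 circles with an exon over 1000 bases hold 2 to 9 exons.

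Deposited lengths run from 1003 to 56094 bases with a median of 1281. There are 210 circles of up to 1200 bases, 137 over that and up to 1500, 87 over that and up to 2000, and 78 over 2000. The exon make-up is described for the 434 whose model has the deposited length, beside 4411 multi-exon circles of over 300 and up to 1000 bases that also have a catalogue name and a model of their length. The long circles hold a median of 7 exons (2 to 26) against 3 (2 to 12), a number that the length rule itself favours. Their largest exon has a median of 296.5 bases against 178. In 117 of the 434 a single exon makes up most of the circle, 27.0% against 25.2%, and in 50 one exon is over 1000 bases by itself. The circle starts at exon 2 of the transcript in 206 long circles, 47.5% against 28.0%. It holds the annotated start codon in 114 of 430 with a coding transcript, 26.5% against 12.9%. The length rule also favours a larger largest exon and the inclusion of a start codon, since these circles hold more exons. The stop codon lies in 8 long circles. Introns flanking the circle have a median of 7983 bases upstream and 7240 downstream, against 7040 and 6057. GC content has a median of 44.0% against 44.8%. These are descriptions of annotation, in which circles of 1 host are not independent.

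Most long circles stand beside other circles of their host. Of the 512, 61 are the sole listed exonic circle of the host and 451 are not. Among those 451 the long circle is the most abundant of its host in 84, or 18.6%, while a catalogue-named circle of over 300 and up to 1000 bases with another circle of its host leads in 31.5%. A start or an end is shared with an exonic circle of the host outside the 512 by 350 of the 512. Both bounds are used by such circles in 119. These others include unnamed circles, listed with the length of their blocks only. A single long circle comes from 313 hosts, a pair from 47 and 3 or more from 26, led by TRIO with 10, BIRC6 with 7, and BARD1 and DHTKD1 with 6 each.

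TRIO encodes a guanine nucleotide exchange factor, and its 10 long circles use few exon bounds. They start at exon 2, 4, 5 or 14 of 57 and end after exon 7, 8, 9, 11 or 21. The most abundant is hsa_circ_0005683 (chr5:14290716-14336727, plus strand, 1506 bases, exons 5 to 11), at 784, 810 and 550 CPM in controls and 554, 715 and 461 CPM with cadmium (edgeR adjusted p = 0.731 for a log2 fold change of -0.31, SE 0.21). The 2 longer circles with the same end, from exon 4 (1699 bases) and exon 2 (1889 bases), had 13 to 24 and 14 to 23 reads per library against 68 to 161 for the circle from exon 5. Their groups overlap, at 125 ± 35.5 and 130 ± 52.5 CPM and at 108 ± 5.44 and 148 ± 46.5 CPM (control and cadmium, SD, n = 3 each). With the same start at exon 5, the circle ending after exon 9 (hsa_circ_0003989, 1191 bases) had 7 to 40 reads. Shorter circles reach higher counts at the same host: hsa_circ_0005260, exons 9 to 11 and 546 bases, had 179 to 443 reads. The other 6 long TRIO circles had 0 to 12 reads per library.

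BIRC6 encodes a giant inhibitor of apoptosis with ubiquitin-conjugating activity. Its most abundant long circle, hsa_circ_0000989 (chr2:32377588-32406557, plus strand, exons 2 to 9 of 74, 1152 bases), had 51, 29 and 19 reads in controls and 21, 20 and 20 with cadmium. Its 2 long circles that hold the 1395-base exon 10 differ in their zeros. hsa_circ_0000990 (exons 9 to 10, 1454 bases) is listed at 0 reads in the 3 control libraries and at 4, 6 and 3 with cadmium, and hsa_circ_0053442 (exons 2 to 10, 2547 bases) at 0, 12 and 6 against 8, 8 and 9. The opposite zeros belong to hsa_circ_0008899 (exons 62 to 66, 1064 bases), with 4, 3 and 6 reads in controls and 0 in the 3 cadmium libraries. Both of the circles with a group at 0 had too few reads to be tested. Among all long circles 6 are listed at 0 in every control library and 5 in every cadmium library. Each has at most 8 reads in the other group, and the share of such circles among all circRNAs was not computed. The counts are therefore no result about long circles. In all 6 libraries 326 long circles are above 0.

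BARD1, the RING-domain partner of BRCA1 in DNA repair, and DHTKD1, a mitochondrial dehydrogenase subunit, show the same sharing of bounds. Of the BARD1 circles, hsa_circ_0001098 (exons 4 to 6 of 11) had 97 to 193 reads per library and hsa_circ_0058051 (exons 2 to 6, 1410 bases) 39 to 97, while the other 4 long ones had 2 to 24. In DHTKD1 5 of the 6 start at exon 2 of 17 and end after exon 6, 7, 10, 13 or 16. The 1005-base circle had 28 to 65 reads and the 2504-base circle, which spans 15 exons, still had 16 to 42.

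No long circle passed the adjusted threshold between cadmium and control with all 6 libraries, at a median of 7 reads per circle and library. Of the 512, 353 passed the filter on low counts, and none of these 353 passed an adjusted p of 0.05 in edgeR's quasi-likelihood test, where 0.0809% of all 6182 circRNAs tested did. By DESeq2, run on all 512 without that filter, the number was also 0. Before adjustment 12 were lower and 12 higher there, and the share among all circRNAs in that fit was not computed. In edgeR 16 of the 353 were higher and 10 lower with an unadjusted p below 0.05, beside 4.09% of all tested circRNAs higher and 4.21% lower. Groups did not overlap in CPM in 22 that were higher and 14 that were lower, beside 7.41% and 7.94% of all tested. The counts of higher circles lie near the share among all circRNAs tested and those of lower circles somewhat under it, a gap that was not tested. The median log2 fold change of the 353 was 0.06 (quartiles -0.33 and 0.44) against -0.01 over all tested, with 197 above 0 and 156 below.

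The 8 most abundant long circles come from hosts with unlike roles. hsa_circ_0000831 of CEP192, a scaffold for centrosome maturation (chr18:12999421-13019206, plus strand, exons 2 to 9 of 44, 1054 bases), had the highest level, at 2186, 1965 and 1691 CPM in controls and 1397, 1486 and 1431 CPM with cadmium. The 3 cadmium values lie below the 3 control values, with means of 1948 ± 248 and 1438 ± 44.8 CPM (SD, n = 3 each), a log2 fold change of -0.44 (SE 0.14) and an edgeR adjusted p = 0.432. It makes up 53.4% of the exonic circle level of CEP192. Groups overlapped in the other 7.

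hsa_circ_0002024 of NAB1, a corepressor of EGR transcription factors (exons 4 to 6, 1024 bases, with an 838-base exon), had 1148 ± 55.0 CPM in controls and 972 ± 199 CPM with cadmium. hsa_circ_0000566 of VRK1, a nuclear serine/threonine kinase (exons 2 to 11, 1073 bases), had 991 ± 67.7 and 856 ± 157 CPM. novel_circ_0018209 of ZNF124, a zinc finger protein, is the single long circle without a catalogue name (1186 bases), and it had 1110 ± 261 and 1163 ± 218 CPM (SD, n = 3 each for these 3 circles). In these 3 circles control replicate 2 was the highest control, by a small margin. For the ZNF124 circle the control libraries, at 1247, 1273 and 809 CPM, differed more than the groups did.

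In the remaining 4 of the 8 the control libraries also differed among themselves more than the groups did. hsa_circ_0001181 of BACH1, a transcriptional repressor of antioxidant genes that is released by heme and oxidants (chr21:29321221-29329693, plus strand, exons 2 to 4 of 5, 1836 bases), had 390, 1619 and 232 CPM in controls and 1172, 943 and 970 CPM with cadmium. Control replicate 2 lies above, and control replicates 1 and 3 below, every cadmium library (edgeR adjusted p = 0.907 for a log2 fold change of 0.49, SE 0.79). The shorter BACH1 circle, hsa_circ_0061395 (exons 3 to 4, 1542 bases), had 214, 519 and 166 CPM in controls and 546, 480 and 421 CPM with cadmium, the same order of controls. hsa_circ_0001098 of BARD1 had 911, 1517 and 643 CPM against 947, 865 and 963 CPM. hsa_circ_0072688 of ADAMTS6, a secreted metalloprotease, had 638, 1022 and 458 CPM against 691, 770 and 549 CPM. hsa_circ_0001686 of MPP6, a membrane-associated scaffold protein, had 526, 880 and 411 CPM against 771, 715 and 726 CPM. In each of these 5 circles control replicate 2 was the highest control library and control replicate 3 the lowest.

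**Figure D2:**
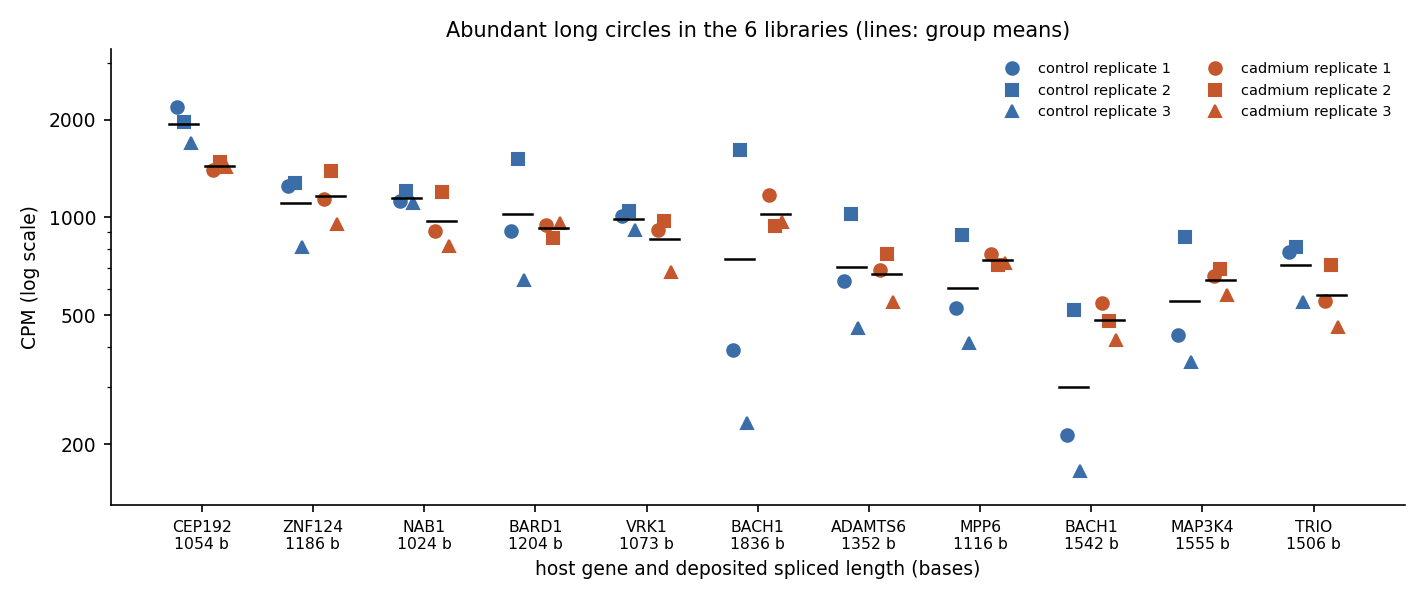
CPM (log scale) of the 8 most abundant long circles and of 3 further ones from BACH1, MAP3K4 and TRIO, 1 point per library, blue for control and orange for cadmium, with shapes for the replicate number and a line at each group mean. Control replicate 2 (blue square) is far above the other controls for BACH1, and the groups separate only for CEP192.

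Of the 6 circles with the smallest p among those higher with cadmium, 4 had groups that did not overlap. Choice by p favours such groups, which 7.41% of all tested circRNAs had in this direction. None of the 6 passed the adjusted threshold (edgeR adjusted p from 0.432 to 0.447). hsa_circ_0019607 of MGEA5, the enzyme that removes O-GlcNAc from proteins, had 131, 165 and 59.7 CPM in controls and 281, 204 and 237 CPM with cadmium (log2 fold change 1.02, SE 0.34). hsa_circ_0074670 of G3BP1, a core protein of stress granules, had 6, 3 and 5 reads against 9, 9 and 13. The groups of both circles do not overlap in CPM, though each control library holds 6 reads or fewer of the G3BP1 circle.

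hsa_circ_0038258 of SMG1, the kinase of nonsense-mediated decay, had 6, 6 and 0 reads in controls and 11, 12 and 13 with cadmium. SMG1 has near-identical pseudogene copies, so its reads are uncertain. The circles of the transcription factor PKNOX1 (6, 5 and 3 against 17, 15 and 4 reads) and of ZMYM2, a zinc finger protein of corepressor complexes (7, 8 and 4 against 13, 18 and 9), overlapped in CPM.

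All 6 circles with the smallest p among those lower with cadmium had groups that did not overlap (edgeR adjusted p from 0.346 to 0.447). Choice by p favours this as well, and 7.94% of all tested circRNAs had such groups in this direction. The CEP192 circle above is 1 of the 6. hsa_circ_0088737 of CIZ1, a nuclear matrix protein that promotes DNA replication (chr9:128169052-128180799, minus strand), had 292, 354 and 245 CPM in controls and 137, 165 and 129 CPM with cadmium (log2 fold change -1.04, SE 0.26). hsa_circ_0005147 of UBE3A had 424, 354 and 352 CPM against 225, 283 and 176 CPM (log2 fold change -0.73, SE 0.24). hsa_circ_0004642 of PUM2, an RNA-binding translational repressor, had 127, 110 and 126 CPM against 56.2, 70.8 and 54.3 CPM. The deposited length of the UBE3A circle is not that of its model, the PUM2 circle (5863 bases) has no model, and the model of the CIZ1 circle has 1692 bases in place of 1524.

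The other 2 come from long noncoding RNAs. hsa_circ_0005118 of CDKN2B-AS1, the antisense transcript of the INK4 locus, had 27, 13 and 21 reads in controls and 7, 2 and 6 with cadmium (log2 fold change -1.71, SE 0.45). hsa_circ_0005915 of MALAT1, a nuclear transcript of speckles, had 19, 13 and 11 against 3, 4 and 5 (log2 fold change -1.54, SE 0.46). The MALAT1 circle has no model, and models between the ends of the CDKN2B-AS1 circle run from 484 to 1254 bases. Use of strand in the authors' counting is not stated, so antisense reads cannot be told apart. Of the 512, 504 come from protein-coding hosts.

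Host genes were grouped by 8 lists, and 0 long circles of any list passed the adjusted threshold. The lists' counts of higher and lower circles are at an unadjusted p under 0.05, beside 4.09% higher and 4.21% lower among all circRNAs tested. With 3 to 21 tested circles in a list, a count of 1 or 2 is no result about the list. The chromatin list has 24 long circles from 15 hosts, of which 16 were tested, with a median log2 fold change of 0.21 and 0 at an unadjusted p under 0.05. Its most abundant are 3 circles of NSD2, a histone H3 lysine 36 methyltransferase, all starting at exon 2. hsa_circ_0001387 (1703 bases) had 251 ± 122 and 328 ± 96.8 CPM, hsa_circ_0005881 (1910 bases) 271 ± 171 and 283 ± 94.0 CPM, and hsa_circ_0002688 (1584 bases) 169 ± 47.6 and 199 ± 50.1 CPM (control and cadmium, SD, n = 3 each). The SD of the control libraries exceeds the difference between groups in all 3.

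The list of DNA repair, replication and mitosis has 16 long circles from 14 hosts, 10 of them tested, with a median of -0.15 and 0 at an unadjusted p under 0.05. The circle of NIPBL, which loads cohesin, had 10, 37 and 7 reads in controls and 22, 33 and 22 with cadmium. That of FANCB, a subunit of the Fanconi anaemia core complex, had 41, 41 and 21 against 41, 39 and 33, and that of POLA1, the catalytic subunit of DNA polymerase alpha, 29, 22 and 18 against 18, 20 and 22. In CPM control replicate 2 was the highest and control replicate 3 the lowest control library for each of these 3 circles.

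The ubiquitin list has 28 long circles from 16 hosts and 21 tested, with a median of -0.34. At an unadjusted p under 0.05, 2 were lower and 0 higher, beside 4.21% and 4.09% of all circRNAs tested. Groups did not overlap in 2 that were higher and 3 that were lower, beside 7.41% and 7.94% of all tested. Besides UBE3A, the circle of the giant ligase HERC1 had 185 ± 31.4 and 206 ± 55.1 CPM, and that of the deubiquitinase USP10, which holds a 1041-base exon, 145 ± 103 and 212 ± 57.5 CPM (control and cadmium, SD, n = 3 each). Both groups overlap in these 2 circles. The cytoskeleton and adhesion list has 31 from 15 hosts, 21 tested, a median of -0.18, and 1 higher and 1 lower, with CEP192 and TRIO at its head. A second CEP192 circle, hsa_circ_0046999 (exons 2 to 15, 2071 bases), had 61, 79 and 33 reads in controls and 41, 41 and 42 with cadmium.

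The kinase and GTPase regulator list has 11 from 8 hosts, 7 tested, a median of 0.12, and 1 higher and 0 lower. hsa_circ_0078617 of MAP3K4, a kinase kinase kinase of the stress-activated p38 and JNK pathways (exons 2 to 3 of 26, 1555 bases), is the single listed circle of its host and had 433, 872 and 358 CPM in controls and 658, 692 and 577 CPM with cadmium. The circle of CDK13, a kinase of the RNA polymerase II tail, had 417 ± 115 and 421 ± 123 CPM (SD, n = 3 each). The RNA processing list has 19 from 14 hosts, 14 tested, a median of 0.13, and 1 higher and 1 lower, beside the same 4.09% and 4.21%. Its leading circles are from CPSF6, a cleavage and polyadenylation factor (365, 935 and 279 CPM in controls against 570, 558 and 563 CPM), the nuclear pore protein NUP205 (314 ± 74.2 and 342 ± 58.0 CPM, SD, n = 3 each) and the RNA-binding protein RBM6 (256 ± 89.7 and 313 ± 30.8 CPM, SD, n = 3 each). The MAP3K4 and CPSF6 circles are highest in control replicate 2 of all 6 libraries.

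The list of metal and oxidative stress genes has 5 long circles from 3 hosts, 4 tested, all 4 with a log2 fold change above 0 (beside 197 of the 353 long circles tested), a median of 0.30 and 0 at an unadjusted p under 0.05. They include both BACH1 circles and hsa_circ_0005424 of TXNRD1, the cytosolic thioredoxin reductase, which had 385, 558 and 305 CPM in controls and 466, 464 and 393 CPM with cadmium. In all 4 tested circles of the list the cadmium mean lies above control replicates 1 and 3 and below control replicate 2. The traffic list has 9 from 8 hosts and 3 tested (median 0.02). Its circles of DENND4C, VPS8 and DENND5A had 16 to 20, 6 to 15 and 2 to 11 reads per library.

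The share of all junction reads in the 512 long circles did not separate the groups. It was 4.44%, 5.69% and 3.30% in controls and 4.90%, 5.05% and 4.01% with cadmium, a difference of 0.176 points (two-sided exact permutation p = 0.9, where 3 against 3 cannot go below 0.1). Control replicate 2 is the highest and control replicate 3 the lowest of the 6. The number of long circles with a nonzero listed count was 486, 487 and 445 in controls and 476, 465 and 460 with cadmium (difference -5.67, exact permutation p = 0.8), again with control replicate 3 lowest. The mean spliced length of multi-exon circles, weighted by reads, was 506, 527 and 479 bases against 504, 508 and 486 bases (difference -4.23 bases, exact permutation p = 0.9).

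Holding the host fixed gave the same order. In 321 hosts with both kinds, 443 long circles had 0.226, 0.298 and 0.175 times the reads of 1389 other exonic circles of the same hosts in control replicates 1 to 3, and 0.242, 0.251 and 0.217 times with cadmium. The difference in log2 ratio was 0.05 (control SD 0.38, cadmium SD 0.11, n = 3 each, two-sided exact permutation p = 0.8). Tested circle by circle against the other circles of its host with edgeR's diffSpliceDGE, 0 of 298 long circles differed at an adjusted p of 0.05, beside 0.0219% of all 4573 circRNAs so tested.

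**Figure D3:**
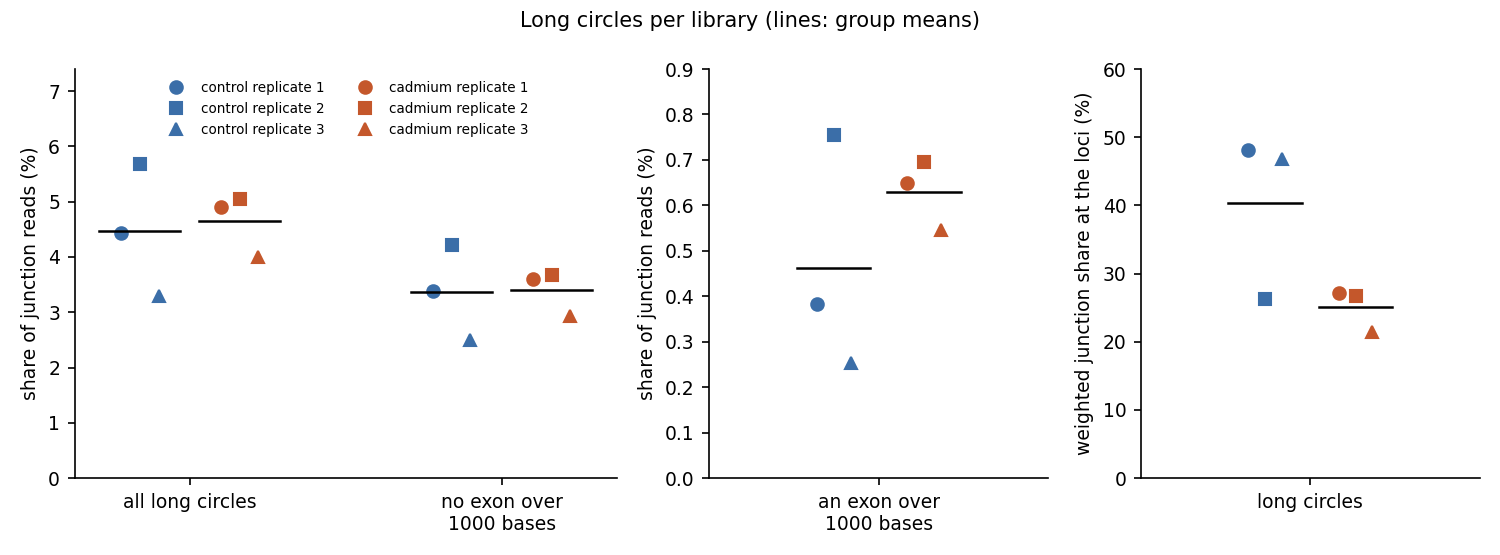
Left, share of all junction reads (%) in the 512 long circles and in the 384 with no exon over 1000 bases; middle, the same for the 50 with an exon over 1000 bases; right, weighted junction share (%) at the loci of the long circles. Each point is a library and lines are group means. Control replicates 1 and 3 are low in the middle panel and high in the right one, where control replicate 2 lies with the cadmium libraries.

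The difference among control libraries grew with the length of the circle from 700 up to 2000 bases. The log2 ratio of control replicate 2 to the mean of control replicates 1 and 3 (5 CPM added to both) had a median of 0.44 over the 353 tested long circles, 70.0% of them above 0, against -0.04 over all circRNAs tested. By length it was -0.05 up to 300 bases, -0.09 up to 500, -0.06 up to 700, 0.13 up to 1000, 0.30 up to 1200, 0.56 up to 1500, 0.76 up to 2000 and 0.42 over 2000 bases, each class starting where the last ends. The last class holds most of the long circles with no model of the deposited length. Over the 68 tested circles without a catalogue name that are over 1000 bases in every GENCODE model, and so are not among the 512, the median was 0.61.

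Cadmium libraries lay between the control libraries in this measure. Their ratio to control replicates 1 and 3 had a median of 0.24 over the long circles and their ratio to control replicate 2 a median of -0.24. Control replicates 1 and 3 differed in the share of reads in long circles, at 4.44% and 3.30%. The value of replicate 1 lay within the cadmium range of 4.01% to 5.05%. Control replicates 1 and 3 are also the libraries with the high weighted junction share. The same split was present at the loci of 4041 shorter circles of over 300 and up to 1000 bases, at 44.4%, 28.2% and 46.9% in controls and 28.1%, 30.5% and 30.2% with cadmium, although the median ratios of circles up to 700 bases were between -0.09 and -0.05. The part of the junction share in the ratios of long circles was not tested.

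**Figure D4:**
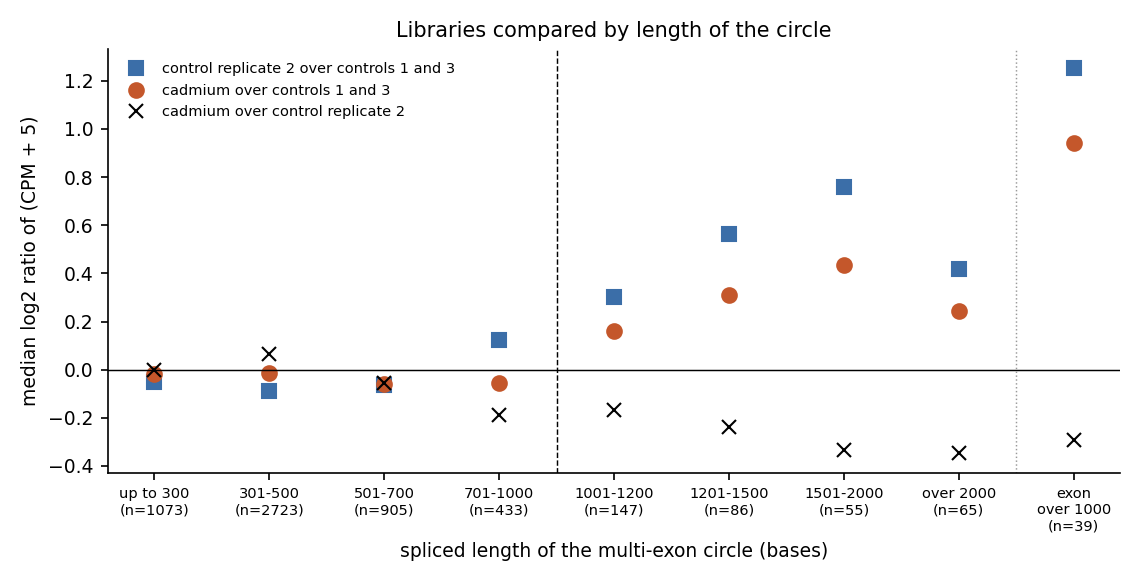
Median log2 ratio of CPM, with 5 added, for multi-exon circles by spliced length (bases), with the number tested under each class and the long circles right of the dashed line; the last column is the long circles with an exon over 1000 bases. Squares compare control replicate 2 and circles compare the cadmium mean with control replicates 1 and 3, and crosses compare cadmium with control replicate 2. Squares and circles rise together from the class that starts above 1000 bases to the class that ends at 2000.

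The 50 long circles with a single exon over 1000 bases, a group formed after the values were seen, showed the widest gaps between control libraries of the classes compared. They hold 2 or 3 exons in 35 cases and start at exon 2 in 25. Their share of junction reads was 0.382%, 0.754% and 0.253% in controls and 0.649%, 0.695% and 0.545% with cadmium (difference 0.167 points, two-sided exact permutation p = 0.4). The other 384 with a model of their length took 3.39%, 4.22% and 2.49% against 3.61%, 3.67% and 2.93% (exact permutation p = 1.0). The log2 ratio of the first share to the second was -3.15, -2.48 and -3.30 in controls and -2.47, -2.40 and -2.43 with cadmium (difference 0.54, exact permutation p = 0.1, the smallest this test can give). The 3 cadmium values are above the 3 control values, by 0.01 in the case of control replicate 2.

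Of the 39 large-exon circles that passed the filter, 30 had both other controls below control replicate 2, and the median log2 ratio of control replicate 2 to the other controls was 1.25. Their median log2 fold change with cadmium was 0.51, with 30 above 0 and 9 below, beside 3060 of all 6182 tested circRNAs above 0, and 1 at an unadjusted p under 0.05. This direction turns with the control used: their median log2 ratio of cadmium was 0.94 to control replicates 1 and 3 and -0.29 to control replicate 2. The circle of NFATC3, a calcium-regulated transcription factor (exons 2 to 3, 1298 bases), had 56, 92 and 40 reads in controls and 79, 84 and 65 with cadmium. That of QSER1 (3968 bases, with a 3693-base exon) had 0, 20 and 0 against 9, 25 and 15. The RGS12 circle (2099 bases), from a regulator of G protein signalling, had 29, 15 and 22 against 22, 31 and 24, and here control replicate 2 was the lowest control. NFATC3, QSER1 and RGS12 were named after their values were seen.

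Leaving out control replicate 2 changed the calls. Without it 3 of 384 tested long circles passed the adjusted threshold, all higher with cadmium, beside 0.184% of all 7084 circRNAs tested, and 46 were higher at an unadjusted p under 0.05, beside 4.21% of all. The median log2 fold change was then 0.21. The 3 are the BACH1 circle hsa_circ_0001181 (log2 fold change 1.68, edgeR adjusted p = 0.0112, and 0.562 to 0.999 over 13 other fits), the QSER1 circle (adjusted p = 0.0226, and 0.657 to 0.999 over 13 other fits) and hsa_circ_0000799 of BPTF, the largest subunit of the NURF chromatin remodeller (adjusted p = 0.0113, and 0.765 to 0.999 over 13 other fits). The BPTF circle (exons 21 to 27 of 28, 2026 bases) had 0, 23 and 0 reads in controls and 14, 19 and 13 with cadmium. It and the QSER1 circle are therefore each listed at 0 in both controls that remain. Against the other BPTF circles diffSpliceDGE called hsa_circ_0000799 in this fit only (adjusted p = 0.00797).

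Leaving out control replicate 3 turned the median. It was then -0.11 (and -0.02 without cadmium replicate 1). Of 389 tested long circles 22 were lower at an unadjusted p under 0.05, beside 3.72% of all 6856 circRNAs tested. Another 8 were higher, for which the share among all circRNAs was not computed. With control replicates 1 and 3 both left out the median was -0.22. The direction of the long circles as a group therefore depends on which libraries are used.

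**Figure D5:**
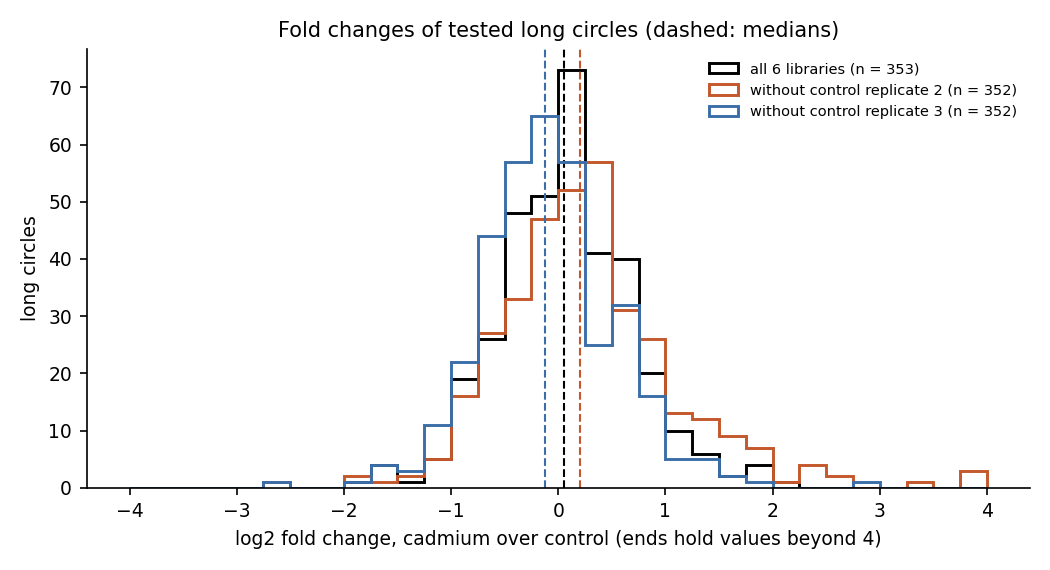
Number of long circles by log2 fold change of cadmium over control, in classes of 0.25, with all 6 libraries (black) and without control replicate 2 (orange) or control replicate 3 (blue); dashed lines are medians. For the circles shown the median is 0.06 with all libraries, 0.20 without control replicate 2 and -0.12 without control replicate 3.

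Long circles had fewer reads on average than shorter ones, more so beside catalogue-named circles. Mean reads per long circle were 19.6, 15.3 and 10.7 in controls and 12.7, 13.4 and 12.5 with cadmium, against 25.3, 15.1 and 18.5 and 14.6, 14.6 and 18.0 for 6185 multi-exon circles of over 300 and up to 1000 bases. The mean log2 difference over libraries was -0.33 (SD 0.29, n = 6), lower in 5 of 6, with control replicate 2 the exception (two-sided exact sign-flip permutation p = 0.0625). Against the 4503 of them with a catalogue name it was -0.59 (SD 0.30, n = 6), lower in 6 of 6, where the exact permutation p was the smallest that 6 libraries allow. Both p-values concern only how repeatable the difference was over libraries that count the same circles. Median reads per circle and library were 6 to 10 for long circles, 6 to 10 for the 6185 and 7 to 12 for the 4503. Of the 512, 115 were over 100 CPM and 3 over 1000 CPM on average, and the 10 most abundant held 18.8% of the long-circle level.

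The ASXL1 circle listed under 2 entries has unequal reads in them. ASXL1 encodes a chromatin regulator that acts with the deubiquitinase BAP1. The count table gives hsa_circ_0006922 19, 5 and 6 reads in controls and 15, 11 and 6 with cadmium, which are those of an intronic entry, while its exonic entry lists 541, 355 and 413 against 270, 303 and 236. With the exonic reads it would be the most abundant long circle, at 2700 ± 78.7 CPM in controls and 2054 ± 384 CPM with cadmium (SD, n = 3 each). The log2 fold change was -0.40 (SE 0.15) and did not pass the threshold in edgeR (adjusted p = 0.487). Its deposited length is 2946 bases and its GENCODE models have 289 to 292 bases. Which entry is right could not be settled from the files.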

How the data were processed

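The authors deposited raw counts, whole numbers of reads over each back-splice junction in each library, per the file headers. Positions, classes, host genes, spliced lengths and non-junction reads come from the authors' annotation table. The submitters' processing notes name DESeq 1.10.1, Bowtie, Bowtie2 2.2.8 and the build hg19 without a role. The program that called circles was not given in the sources used here. Positions follow GRCh38: 97.5% of starts and 99.0% of ends of the long circles lie on exon bounds of GENCODE 29, and coordinates are given in that build. Exon models are transcripts of the host with both ends on exon bounds, starts within 1 base.

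Tests were fitted on all circRNAs with edgeR 4.0.16 in R 4.3.3 (TMM factors, robust quasi-likelihood, minimum count 5, minimum total 15, Benjamini-Hochberg adjusted p under 0.05), and only the long circles are reported. DESeq2 1.42.0 was an alternative. The standard error (SE) of a log2 fold change was computed as |log2 fold change| / sqrt(F). For single values per library, exact permutation tests (two-sided) were run in scipy 1.17.1. Scripts were tested on simulated data with known changes. There diffSpliceDGE made false calls more often than edgeR's test did, so a single call by it is weak.

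Members and gene lists were chosen with earlier results of these data known. The rule for names takes the 8 most abundant long circles, 6 in each direction by p, the 5 longest, all of the 2 hosts with most long circles, 3 per list, and 2 on each side of the length bound. One circle that the rule names is not reported here. DHTKD1, the other BARD1 circles and the large-exon circles were added after seeing the data. Same-numbered libraries of the 2 groups were not treated as pairs.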

Additional observations from a re-analysis of the deposited data

How the results depend on the processing

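All 6 libraries gave 0 long circles called, and so did other size factors, library totals alone, no filter, a stricter filter, DESeq2, a bound of 1500 bases, GENCODE lengths over 1000 bases and the exonic ASXL1 entry. Leaving out 1 library in turn gave 0 to 3, and 3 only without control replicate 2. With the replicate number as a block (replicate block) 0 were called and the median log2 fold change was 0.07. Before adjustment 19 were higher and 14 lower at p under 0.05, and the share among all circRNAs was not computed. Deviations of same-numbered libraries correlated at 0.0003, 0.02 and 0.05, and those of other control and cadmium pairs at -0.04 to 0.03. Counting noise at low reads keeps such values small, so they cannot decide whether same-numbered libraries share a culture or batch. The median ran from -0.11 to 0.21 without 1 library and was -0.22 with control replicates 1 and 3 left out, an alternative added after seeing the data, in which the lone control library is taken to have the spread of the cadmium group. GENCODE lengths, catalogue-named denominators and comparators, the ASXL1 entry and the large-exon class were also chosen after seeing the data.

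Differences between groups in values per library turned with the libraries. The share in long circles ran from -0.41 to 0.78 points without 1 library and was -1.04 with control replicates 1 and 3 left out. For large-exon circles it ran from 0.06 to 0.31 and was -0.12. Detected long circles differed by -19.5 to 1.5, the weighted length by -16.8 to 7.37 bases, and the within-host log2 ratio by -0.14 to 0.25, and by -0.34 with control replicates 1 and 3 left out. diffSpliceDGE called 0 to 1. The level difference was -0.59 against catalogue names only. The cause was not tested.

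Of 261 alternative fits of 19 named circles 252 kept direction and side of the threshold. Without 1 library the ZNF124 circle novel_circ_0018209 ran from -0.13 to 0.18, the BARD1 circle hsa_circ_0001098 from -0.39 to 0.23 and the ADAMTS6 circle from -0.31 to 0.26. With control replicates 1 and 3 left out the ZNF124, BACH1 (hsa_circ_0001181) and MPP6 circles were at -0.13, -0.66 and -0.26. A median of 7 reads limits what single long circles can show.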
